A study of Caenorhabditis elegans with 2 samples.

Results

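The regions described here are peaks of the transcription factor ZIP-5 that lie in distal intergenic DNA of the nematode Caenorhabditis elegans, away from tRNA and snoRNA genes. They were taken from the peak list called on both replicates together, called the pooled list below. A pooled peak was kept when at least 1 bp of it was also covered by the list of each replicate. Its summit then had to lie outside every protein-coding gene. Summits in promoter windows were left out too, a window being the 1000 bp before and the 200 bp after a gene's outermost start. Last, it had to be more than 100 bp from any tRNA or snoRNA gene. This left 345 peaks of the 2359 nuclear pooled peaks found in both replicate lists, which are called reproducible peaks below. The nuclear pooled list held 4362 peaks. Of the 345 peaks, 54 overlapped another of them, and merging these left 318 separate places. The width was 444 bp in 343 of the 345, so width carries no information here.

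The peaks come from chromatin immunoprecipitation followed by sequencing (ChIP-seq), in which sonicated chromatin is pulled down with an antibody and the recovered DNA is sequenced. Whole hermaphrodite animals of strain OP544 were used as late embryos, 4 hours after their release from the mother by egg bleaching. The strain carries the unc-119(tm4063) III allele together with the transgene wgIs544, which expresses ZIP-5 with a GFP-FLAG tag at its C-terminus, and the antibody was against GFP. There were 2 biological replicates, which form the only group, and no second condition. No statistical test between groups could therefore be made, and every comparison below is a description of these lists. Pull-down from animals without the tag was not used here, so recovery that needs ZIP-5 cannot be told apart from recovery that does not.

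ZIP-5 belongs to the basic leucine zipper (bZIP) family, whose members pair through a zipper of leucines and touch DNA with a basic region next to it. The worm genome is compact and most known regulatory DNA lies just upstream of genes. Because many worm transcripts are trans-spliced, transcription can begin away from the annotated start. Distal sequence can hold unannotated starts, enhancers, genes for small structural RNAs and repeats. In hermaphrodites, X is also bound by the dosage compensation complex, which lowers transcription from both X chromosomes and is first loaded at recruitment elements that share a short sequence motif.

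The DNA under the strongest summits is shown first because the results below refer back to it. Each line gives the gene whose start is nearest, the position in ce11 and the plus strand of the window from 100 bp before to 100 bp after the summit, read from the RefSeq genome of the same assembly (WBcel235). The 6 strongest peaks for which sequence is shown differ in kind. The window at hrg-5 lies beside the microRNA gene mir-51, and the window at klp-7 holds a dispersed repeat. The windows at H12I13.1 and F58D12.3 share the word GGAGTACA, in capitals, and that at D2096.7 holds the related GGAGTTCA.
Y41D4B.24, chrIV:1687185-1687385: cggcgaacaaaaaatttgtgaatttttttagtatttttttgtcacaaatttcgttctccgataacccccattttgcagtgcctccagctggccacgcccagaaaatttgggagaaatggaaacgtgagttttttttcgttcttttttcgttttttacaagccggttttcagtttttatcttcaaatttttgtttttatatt
hrg-5, chrIV:11026086-11026286: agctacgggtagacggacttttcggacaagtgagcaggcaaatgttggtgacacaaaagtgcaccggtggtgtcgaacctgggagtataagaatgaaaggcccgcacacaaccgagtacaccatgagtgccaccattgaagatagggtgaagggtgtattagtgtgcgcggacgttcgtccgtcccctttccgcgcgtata
H12I13.1, chrII:6061594-6061794: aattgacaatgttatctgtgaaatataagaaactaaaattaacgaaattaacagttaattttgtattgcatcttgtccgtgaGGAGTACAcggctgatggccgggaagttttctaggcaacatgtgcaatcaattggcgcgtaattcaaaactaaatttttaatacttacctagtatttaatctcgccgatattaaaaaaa
F58D12.3, chrV:14055122-14055322: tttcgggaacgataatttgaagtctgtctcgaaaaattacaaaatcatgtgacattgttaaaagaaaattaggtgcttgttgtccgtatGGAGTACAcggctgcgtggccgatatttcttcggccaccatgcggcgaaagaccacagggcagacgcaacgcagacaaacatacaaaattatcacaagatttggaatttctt
klp-7, chrIII:10811009-10811209: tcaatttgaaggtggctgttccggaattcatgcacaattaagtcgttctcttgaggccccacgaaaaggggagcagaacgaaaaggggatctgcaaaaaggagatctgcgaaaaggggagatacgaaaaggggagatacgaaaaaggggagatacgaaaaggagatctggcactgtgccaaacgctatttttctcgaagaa
D2096.7, chrIV:8375449-8375649: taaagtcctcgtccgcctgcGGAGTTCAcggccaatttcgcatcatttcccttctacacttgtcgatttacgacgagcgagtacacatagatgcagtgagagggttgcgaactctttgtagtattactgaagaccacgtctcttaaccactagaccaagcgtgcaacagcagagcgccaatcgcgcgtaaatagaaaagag

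Short stretches around that word are compared next, each turned so that the word reads in the same direction. A seventh peak with the word, at srbc-64, is not shown. In the 6 lines shown the bases cg follow the word directly, except at C34F6.10.
H12I13.1, chrII:6061664-6061695: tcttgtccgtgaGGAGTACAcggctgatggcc
F58D12.3, chrV:14055199-14055230: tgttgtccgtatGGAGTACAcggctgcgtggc
D2096.7, chrIV:8375457-8375488: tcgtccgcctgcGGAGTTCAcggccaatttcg
C07D10.1, chrII:7397630-7397661: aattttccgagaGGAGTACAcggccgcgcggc
C34F6.10, chrX:11248211-11248242: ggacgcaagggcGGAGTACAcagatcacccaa
C44C10.10, chrX:11689273-11689304: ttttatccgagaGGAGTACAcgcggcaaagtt

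A second word, CGCAGGGA in capitals, is shown because 7 of the 8 distal peaks that hold it lie on X. The base before the word is g in 5 of the 8 lines. The letters CGCAGGGA are part of the motif shared by recruitment elements of the dosage compensation complex, as known from studies of that complex.
W02H3.3, chrX:11094111-11094144: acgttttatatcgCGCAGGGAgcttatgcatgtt
gtr-1, chrX:806738-806771: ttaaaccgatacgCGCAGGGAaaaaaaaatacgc
F22H10.2, chrX:16682158-16682191: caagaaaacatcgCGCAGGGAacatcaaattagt
F55G7.5, chrX:11937529-11937562: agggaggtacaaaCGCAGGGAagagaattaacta
xol-1, chrX:8036423-8036456: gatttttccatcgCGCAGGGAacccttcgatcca
B0302.2, chrX:17181351-17181384: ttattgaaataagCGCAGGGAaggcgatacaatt
T27A8.7, chrX:16056519-16056552: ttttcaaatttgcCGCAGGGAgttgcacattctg
pole-4, chrII:14967185-14967218: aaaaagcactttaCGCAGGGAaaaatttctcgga

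Repeated sequence makes up the third set. Distal peaks were grouped when their windows matched directly or through another of them, and each line below is 1 peak of such a group. The klp-7 window above belongs to the first group. The fbxa-55 window stands for a group whose stronger peak, at nas-30, is not shown. The window at fbxa-55, that at T28H10.2 and that at Y49G5A.1 are runs of a short unit repeated head to tail. The window at syx-16 lies inside srpr-2.1, one of the genes for the RNA of the signal recognition particle, which guides secreted proteins to the endoplasmic reticulum.
lgc-26, chrV:265334-265534: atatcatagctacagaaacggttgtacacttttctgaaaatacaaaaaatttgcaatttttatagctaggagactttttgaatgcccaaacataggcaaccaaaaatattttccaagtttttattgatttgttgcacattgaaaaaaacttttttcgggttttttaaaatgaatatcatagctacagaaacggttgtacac
fbxa-55, chrIII:931470-931670: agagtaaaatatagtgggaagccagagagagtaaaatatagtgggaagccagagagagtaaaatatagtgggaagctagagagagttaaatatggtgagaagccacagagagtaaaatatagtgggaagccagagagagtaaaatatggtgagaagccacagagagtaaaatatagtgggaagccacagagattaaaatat
T28H10.2, chrV:12510073-12510273: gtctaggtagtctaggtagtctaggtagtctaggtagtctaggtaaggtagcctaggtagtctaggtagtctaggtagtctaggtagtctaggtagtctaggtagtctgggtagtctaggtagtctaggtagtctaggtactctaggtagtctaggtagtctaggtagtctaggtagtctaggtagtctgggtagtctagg
Y49G5A.1, chrV:5284704-5284904: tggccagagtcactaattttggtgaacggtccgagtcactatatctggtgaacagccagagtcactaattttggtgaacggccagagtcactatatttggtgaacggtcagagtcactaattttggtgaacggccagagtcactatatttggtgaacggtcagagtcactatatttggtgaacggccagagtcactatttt
syx-16, chrIII:5211302-5211502: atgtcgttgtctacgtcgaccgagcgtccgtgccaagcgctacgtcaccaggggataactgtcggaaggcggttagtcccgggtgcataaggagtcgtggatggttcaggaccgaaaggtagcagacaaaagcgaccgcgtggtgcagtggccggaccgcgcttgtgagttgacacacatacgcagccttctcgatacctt

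The window at ZC21.10 is shown because it holds the word CTAGGCCA, which earlier results had found at promoter peaks and which is in capitals here as its reverse complement.
ZC21.10, chrIII:8528965-8529165: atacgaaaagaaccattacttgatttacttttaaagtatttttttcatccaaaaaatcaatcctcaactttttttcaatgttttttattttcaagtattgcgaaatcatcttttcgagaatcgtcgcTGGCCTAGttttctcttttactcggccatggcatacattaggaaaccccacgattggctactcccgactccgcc

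Distal intergenic peaks were mostly weak, and their scores were like those of peaks inside genes. The score is the authors' signal value, whose scale is not stated, so it is used only to order and describe peaks within a list. Its median in the pooled list was 63.3 over the 345 distal peaks, with quartiles of 55.8 and 75.7 and a range from 48.5 to 339.2. The median was 62.8 over the 672 peaks inside genes, 81.6 over the 1084 promoter peaks and 126.5 over the 258 peaks within 100 bp of a tRNA or snoRNA gene.

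A smaller share of distal than of promoter peaks was found in both replicates. Of the 794 nuclear pooled peaks in distal sequence, 345 (43.5%, exact 95% interval 39.97 to 46.98) were in both replicate lists, against 54.1% of all nuclear pooled peaks. The share was 43.2% (40.8 to 45.7) inside genes, 63.5% in promoter windows and 84.0% near tRNA and snoRNA genes. The scores of a distal peak in the replicates were also less alike. Spearman's rho between the replicate scores was 0.462 over the distal peaks, 0.461 inside genes, 0.750 at promoter peaks and 0.802 near RNA genes. Peaks share 2 libraries and are not independent, so these are descriptions. The intervals here and below cover the counting of peaks only.

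**Figure D1:**
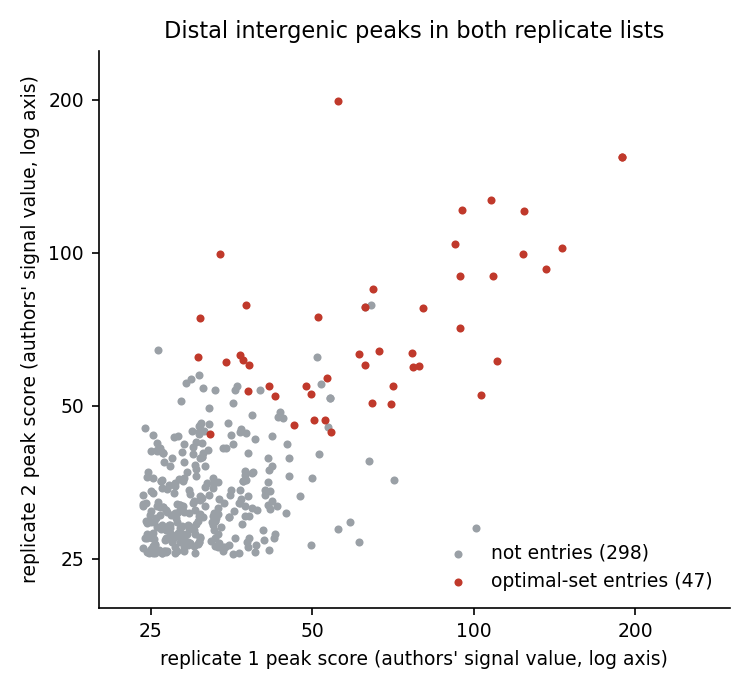
Score of each of the 345 distal peaks in the replicate 1 list (horizontal) and the replicate 2 list (vertical), both on log axes; red points are the 47 entries of the optimal set and grey points the other 298. Most grey points lie below 50 in both lists, and the point at 55.8 and 199.4 is the peak beside mir-51.

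The authors also deposited an optimal set, chosen by the irreproducible discovery rate, which scores how repeatable the rank of a peak is from one replicate to the other. Of the distal peaks, 47 (13.6%, 10.2 to 17.7) were entries of this set, with the same boundaries and summit, against 30.9% of all reproducible peaks. The share of entries was 13.8% (11.3 to 16.7) inside genes, 38.7% in promoter windows and 65.5% near RNA genes. A further 14 distal peaks only overlapped an entry, which gives 61 (17.7%, 13.8 to 22.1) overlapping the set, against 35.6% of all reproducible peaks. The weakest entry, at gpb-1, had a score of 95.4 and the strongest distal peak outside the set, at K08F11.1, one of 95.1, so the set is a cut on the score here.

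**Figure D2:**
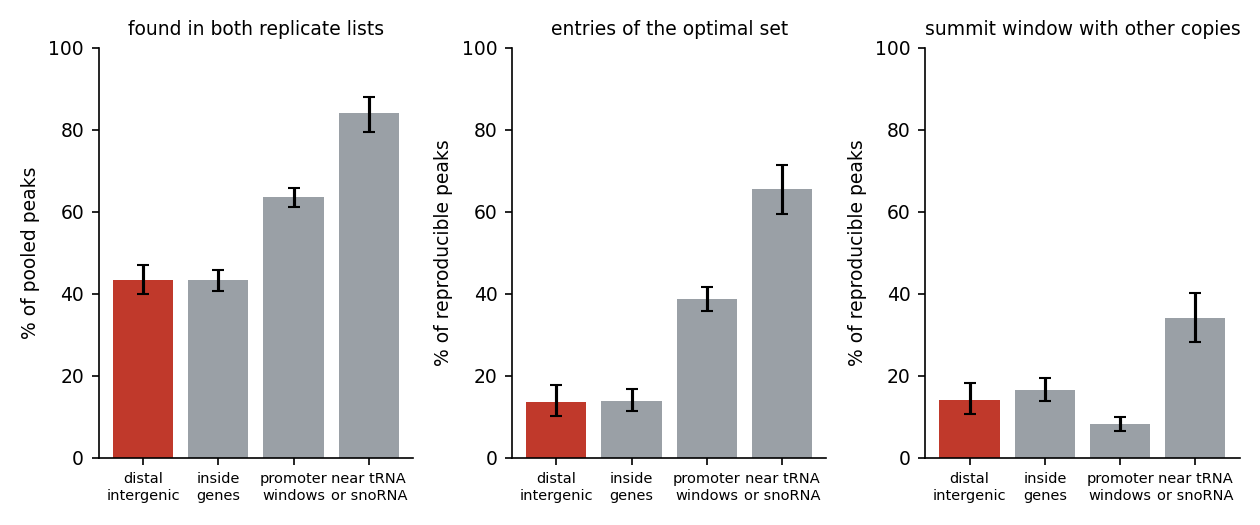
Shares by location of the summit: pooled peaks found in both replicate lists (left), reproducible peaks that are entries of the optimal set (middle) and reproducible peaks whose summit window has other copies in the genome (right), with exact 95% intervals. Distal intergenic peaks, in red, are close to peaks inside genes in the left and middle panels, at 43.5% and 13.6%.

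The 20 strongest distal peaks had pooled scores from 131.1 to 339.2, and all were entries. Their scores ran from 33.7 to 189.0 in replicate 1 and from 52.6 to 199.4 in replicate 2. The strongest lay 5119 bp upstream of Y41D4B.24, with a score of 339.2 in the pooled list, 189.0 in replicate 1 (rank 65 of 6253) and 154.7 in replicate 2 (rank 102 of 6945). A neighbouring peak that overlaps it, at 131.1, matched the same entry of each replicate list, so the pair is 1 region in the replicates.

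The peak beside mir-51 was the second strongest and the one whose replicates differed most in rank among the first 8. Its pooled score was 322.9, with 55.8 (rank 610) in replicate 1 and 199.4 (rank 52) in replicate 2. The first 2 peaks were followed by H12I13.1 at 248.8 (124.3 in replicate 1 and 120.9 in replicate 2), and by Y48G8AR.2 at 247.4 (146.2 and 102.0 in the same order). F58D12.3 reached 236.2 in the pooled list, with 107.7 in replicate 1 and 127.2 in replicate 2. D2096.7 reached 218.0, with 94.9 and 121.5 in the same order. The lowest rank of these 4 peaks was 277 in replicate 1 and 266 in replicate 2, so both replicates placed them higher than replicate 1 placed the mir-51 peak.

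The lgc-26 peak was high in one replicate and low in the other. It had a pooled score of 213.9, with 33.7 (rank 1757) in replicate 1 and 99.4 (rank 278) in replicate 2. At cul-5, which encodes a cullin, a scaffold of ubiquitin ligases, the order was the reverse, with 163.8 in the pooled list, 103.0 (rank 245) in replicate 1 and 52.6 (rank 738) in replicate 2. The other named peaks of the first 20 lay at klp-7, Y50D4A.4, efa-6, nas-30 and fbxa-55, which are repeats, at ztf-27 (141.0), W02H3.3 (135.0) and gtr-1 (132.1), and beside mir-52.

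Lists of the strongest peaks of 1 replicate held nearly all entries but a smaller share of all distal peaks. The strongest 2359 nuclear peaks of replicate 2 alone gave 366 distal regions, which overlapped 170 of the 345 peaks (49.3%) and 46 of the 47 entries (97.9%). Those of replicate 1 alone gave 363, which overlapped 181 (52.5%) and 45 (95.7%). The cut by rank sets much of this in advance. The median rank of the 345 peaks was 2296 in replicate 1 and 2433 in replicate 2, close to the cut. For entries it was 532 and 568 in the same order. Entries were also selected from these same lists, so their higher shares are a description. Summits in both replicate lists lay within 100 bp of the pooled summit for 234 of the 345 peaks and for 42 of the 47 entries.

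Strong peaks stood beside 2 of the 6 microRNA genes of the mir-51 family. These were the only distal peaks within 100 bp of any microRNA gene (0.580%, 0.0703 to 2.08, against 0.127% of the distal bases open to the rule). That interval includes the share of bases, so no excess near microRNA genes can be read from 2 peaks. The members of this family act redundantly and are needed for embryonic development in this species. In the annotation, mir-51 runs on the minus strand at chrIV:11026013-11026112, and the summit lay 74 bp upstream of its start. The summit of the mir-52 peak lay within that gene, at chrIV:14034008-14034107. Its pooled score was 217.5, with 123.7 in replicate 1 and 99.5 in replicate 2. The ncRNA genes Y37A1B.330 and Y37A1B.335 were also within 100 bp of this summit. No pooled peak had its summit within 100 bp of the other 4 genes of the family. The nearest summits lay 138 bp from mir-54, 140 bp from mir-56 and 276 bp from mir-55, 3 genes that stand together on X, and 1407 bp from mir-53.

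Genes for the signal recognition particle RNA were covered in full. All 5 such genes in the annotation had a reproducible peak with its summit within 100 bp, and 3 of these peaks are distal by the rule used here. They lay in srpr-2.1 (pooled score 98.3, an entry), in srpr-1.1 (59.2) and 52 bp from srpr-3 (59.9). The other 2 genes, srpr-2.2 (168.3) and srpr-1.2 (112.5), lie inside protein-coding genes, and their peaks are entries. In replicate 1 the 5 peaks scored 32.2, 51.0, 37.8, 63.5 and 53.2 in the order named, and in replicate 2 they scored 44.0, 62.3, 27.0, 99.7 and 60.7. The windows at srpr-2.1 and srpr-1.1 match over their whole length at 93.0% identity, so reads could fit more than 1 of these genes, and how the authors placed such reads is not given in the sources used here.

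An SL2 RNA gene, sls-2.2, carried another strong distal peak. SL2 RNAs donate the spliced leader that is joined to downstream genes of worm operons. The peak, nearest to the start of ins-13, had a pooled score of 126.9, with 66.6 in replicate 1 and 64.0 in replicate 2, which are close. Of the 18 genes named sls-2 in the annotation, 5 had a reproducible peak within 100 bp and 3 an entry, and only sls-2.2 among them is distal here. None of the 12 SL1 RNA genes had a pooled peak within 100 bp. All 12 stand in a single run on V, between positions 17118154 and 17132107. Whether reads could fit more than 1 of them was not tested, so a lack of binding cannot be read from this count.

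Over all other non-coding genes and pseudogenes, distal peaks were not near them more often than distal sequence is, but the kinds differed. In all, 67 peaks (19.4%, 15.4 to 24.0) had their summit within 100 bp of one, against 20.1% of the distal bases open to the rule. Genes of the Ensembl class ncRNA, a mixed class of short non-coding transcripts, were near 44 peaks (12.8%, 9.42 to 16.7), against 3.31% of bases. Of these 44, 7 were entries, against 13.6% of all distal peaks, and the median pooled score of the 44 was 67.4. Pseudogenes were near 12 peaks (3.48%, 1.81 to 6.00, against 11.8% of bases). Genes for piRNAs, the small RNAs that silence transposons in the germline, were near 5 (1.45%, 0.472 to 3.35, against 4.32%). No entry was among these 5, which are too few to set against the 13.6% of all distal peaks. Long intergenic RNA genes were near 7 peaks (2.03%, 0.820 to 4.14, against 0.836%).

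The strongest peak of each kind was as follows. The mir-51 peak was also the strongest near an ncRNA gene, F36H1.17. Both genes lay within 100 bp of this summit, so the peak cannot be assigned to 1 of the 2. The strongest peak near a long intergenic RNA was that at cul-5, beside linc-146. The strongest near a pseudogene was an entry on X with a pooled score of 98.8 (30.6 in replicate 1 and 62.5 in replicate 2). The strongest near a piRNA gene lay at bath-10 (83.8 in the pooled list, 36.7 in replicate 1 and 44.4 in replicate 2). The single peak near an antisense RNA gene, anr-24, had scores of 67.2, 37.2 and 35.6 in the same order. The snRNA class was represented by sls-2.2 alone.

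**Figure D3:**
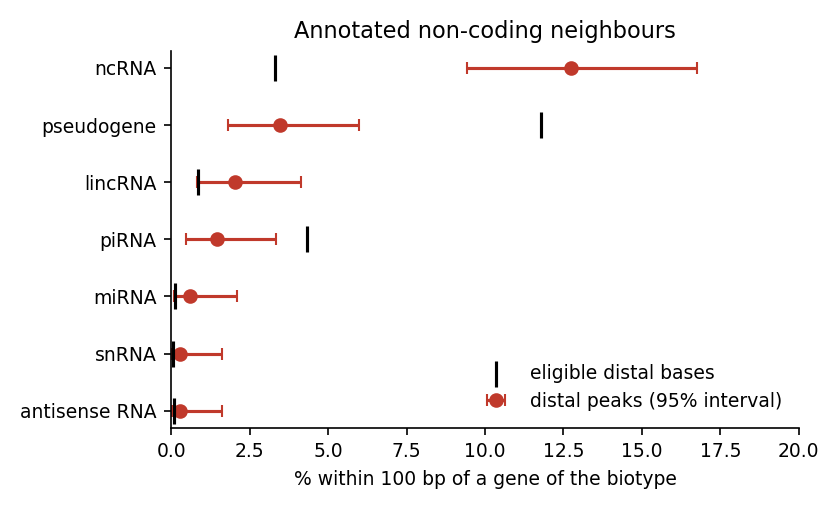
Share of the 345 distal peaks with the summit within 100 bp of a gene of each Ensembl class (red, exact 95% interval) beside the share of eligible distal bases at that distance (black bars). The ncRNA class is at 12.8% against 3.31% and pseudogenes are at 3.48% against 11.8%.

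Words were looked for on both strands within 100 bp of each summit, and the background was 120080 windows of the same length that tile the eligible distal sequence without overlap. All members, gene lists and words were chosen with earlier results of these data known, so a high share of CTAGGCCA, GGAGTACA or ACTCCTCT is no independent finding. Most known bZIP sites were near or below background. TGACGTCA, the cyclic AMP response element, was in 2 peaks (0.580%, against 1.01% of windows), TGANTCA, the AP-1 site, in 17 (4.93% against 5.74%), and TTGCNNAA in 63 (18.3% against 21.4%). TTACGTAA was in 2 (0.580% against 0.248%), TGACGTG in 2 (0.580% against 1.496%) and TGATGCAA in 2 (0.580% against 0.770%). The site furthest above background was TTGCGCAA, the palindrome bound by C/EBP factors, which was in 6 peaks (1.74%, 0.641 to 3.75, against 0.346%). It contains TTGCNNAA, so the 2 counts share these peaks. TTGCGCAA was in 1.57% of promoter peaks and 0.298% of peaks inside genes.

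The word CTAGGCCA was in 9 distal peaks (2.61%, 1.20 to 4.89), against 0.740% of windows and 10.2% of promoter peaks. The single entry among these peaks was that at ZC21.10 (pooled score 95.8, with 52.8 in replicate 1 and 46.8 in replicate 2), which lay 1007 bp from the start of that gene and so 7 bp outside its promoter window. The other 8 lay at F11A6.16 (83.5), mec-8 (75.8), kpc-1 (74.8), K08F11.1 (73.2), mog-4 (68.8), kal-1 (63.5), Y37D8A.16 (62.9) and Y48G8AR.2 (53.9). Of the 9 windows, 4 have other copies in the genome, and none of the 9 is on X, which holds 73 of the 345 distal peaks (21.2%). The word is also rarer in the background on X, in 0.230% of windows there against 0.891% on the autosomes. With 73 peaks, a count of 0 on X is therefore near that background. Among the other reproducible peaks, 7 of 247 on X (2.83%) and 138 of 1767 on the autosomes (7.81%) held the word. GGAGTACA was in 6 peaks (1.74%, 0.641 to 3.75, against 0.415% of windows and 4.15% of promoter peaks), and ACTCCTCT in 3 (0.870% against 0.376%).

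GGAGTACA lay close to the summit. The middle of the word was within 50 bp of the summit in 5 of the 6 peaks, at a median of 10 bp, and in the strong peaks at H12I13.1 and F58D12.3 it was 14 and 7 bp away. The others were C07D10.1 (79.4), C34F6.10 (67.6), srbc-64 (54.3) and C44C10.10 (52.9). At D2096.7 the related word GGAGTTCA was 76 bp from the summit. With any base in that place (GGAGTNCA) the word was in 7 peaks (2.03%, 0.820 to 4.14), an interval that includes the 1.24% of windows.

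Simple and GC-rich words were also more frequent than in the background. GAGAGAGA was in 24 peaks (6.96%, 4.51 to 10.2), against 1.63% of windows, 5.06% of peaks inside genes and 4.24% of promoter peaks. GGGCGG, the GC box, was in 22 (6.38%, 4.04 to 9.50, against 3.20%). That share was below those of the other locations, 9.82% inside genes, 10.7% at promoter peaks and 10.1% near tRNA and snoRNA genes. TTAGGCTT, a reading of the telomere repeat, was in 11 (3.19%, 1.60 to 5.63, against 1.13%). TGATAA, the site of GATA factors, was below the background in 39 peaks (11.3%, 8.16 to 15.1, against 17.4%), as was CTGTTTCA, the core of the motif upstream of piRNA genes, in 4 (1.16% against 2.91%). TATAAA was in 62 (18.0% against 23.3%), ATTTGCAT in 8 (2.32% against 1.72%), TTTCCCGC in 9 (2.61% against 1.25%) and CACGTG in 5 (1.45% against 2.74%). GGTTCGA, the B box of tRNA genes, was in 7 (2.03% against 1.48%), and in 49.2% of peaks near tRNA and snoRNA genes. The mir-51 peak was among these 7, although its nearest tRNA or snoRNA gene was 56961 bp away. The windows differ in composition from the background, with a median GC content of 38.8% against 33.8%, and the part of GC content in these shares was not tested.

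CGCAGGGA came first in an open tally of 8-letter words, ranked by the ratio of the 2 shares among words present in at least 8 of the 296 distal peaks whose window has no other copy. It was in 8 of these 296, the fewest that the tally admits. It was in 8 of all 345 peaks (2.32%, 1.01 to 4.52), against 0.105% of windows. The count was 6 without replicate 1, 5 without replicate 2 and 4 among the stronger 50% of the reproducible peaks. The word was chosen after its values were seen, and no test is given. It had not been used in the rule that selects the peaks. On X it was in 7 of 73 distal peaks (9.59%), against 0.139% of windows on X. On the autosomes it was in 1 of 272 (0.368%), against 0.0949% of windows. Among the other reproducible peaks it was in 3 of 247 on X (1.21%) and in 5 of 1767 on the autosomes (0.283%). Words with lower ratios in the tally were in more peaks. AGACGCAG, for example, was in 23 of the 345 (6.67%, 4.27 to 9.84), against 1.13% of windows and 4.37% of the other reproducible peaks. Of these 23 peaks, 2 were on X and 21 on the autosomes.

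Of the 9 entries on X, 4 held CGCAGGGA, and of the 38 entries on the autosomes none did. These 4 lay at W02H3.3 (135.0 in the pooled list, 62.8 in replicate 1 and 78.4 in replicate 2), gtr-1 (132.1, 79.0 and 59.8), F22H10.2 (126.7, 62.7 and 60.1) and F55G7.5 (103.2, 36.7 and 63.0). The weaker peaks lay at xol-1 (66.4), whose product sets the sexual fate that controls dosage compensation, at B0302.2 (65.9), at T27A8.7 (64.8) and, as the only autosomal one, at pole-4 (52.2). The xol-1 peak lay 4837 bp upstream of that gene's start and 209 bp from a tRNA or snoRNA gene, and a link to xol-1 was not tested. It was uneven between replicates, with 25.8 (rank 4780) in replicate 1 and 64.3 (rank 545) in replicate 2. The extended word GCGCAGGGA was in 5 peaks, all on X and 3 of them entries, against 16 of 27380 windows on X and 17 of 92700 on the autosomes. The word lay at a median of 54.5 bp from the summit, and within 50 bp in 3 of the 8 peaks.

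**Figure D4:**
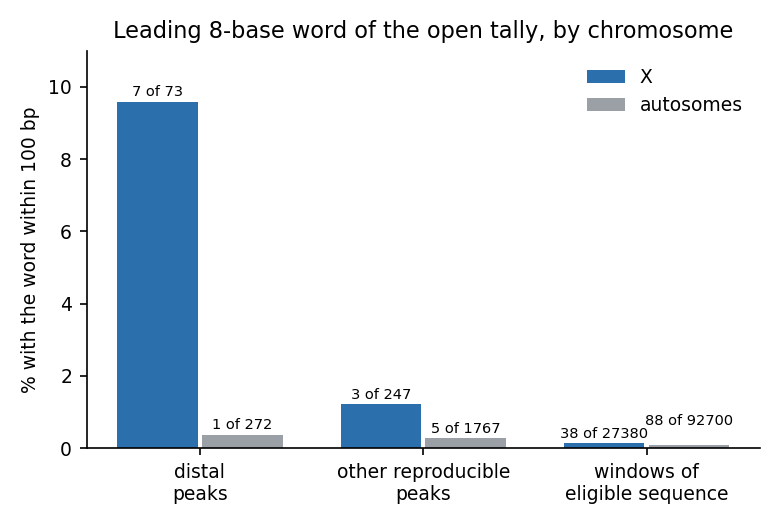
Share of regions with the leading word of the open tally within 100 bp of the summit (or in the window) on X (blue) and the autosomes (grey), for distal peaks, other reproducible peaks and windows that tile eligible distal sequence; counts stand above the bars. Distal peaks on X are at 9.59% and the other bars are at 1.21% or below.

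Distal peaks were in repeated sequence less often than distal sequence as a whole, but entries were there more often than weaker peaks. A window counted as repeated when at least 50% of it matched another place at 80% identity or more. That held for 49 peaks (14.2%, 10.7 to 18.3), against 29.4% of 3002 background windows searched (27.8 to 31.1). It held for 18 of the 47 entries (38.3%, 24.5 to 53.6) and 31 of the 298 other distal peaks (10.4%, 7.18 to 14.4). The share was 16.5% inside genes, 8.21% at promoter peaks and 34.1% near tRNA and snoRNA genes. By the soft-masking of the genome sequence, the median window was masked over 30.8% of its length, against 36.3% in the background.

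In all, 17 distal peaks matched another distal peak and formed 6 groups, and 13 of the 17 were entries. The largest group had 7 peaks, all of them entries, and the klp-7 window shown above is its strongest. They were a pair at klp-7 (225.3 and 170.4), a pair at Y50D4A.4 (190.8 and 114.1), and 1 each at efa-6 (171.1), ctg-1 (99.3) and eftu-2 (97.4). In replicate 1 these scored 136.4, 110.7, 92.1, 51.3, 94.3, 54.1 and 41.5 in that order, and in replicate 2 they scored 92.9, 61.3, 104.0, 74.9, 89.98, 44.3 and 54.7. The group is a chain of matches. The windows of the weaker klp-7 peak, the stronger Y50D4A.4 peak, efa-6 and eftu-2 matched each other, at 93.2% to 99.0% identity. That of the stronger klp-7 peak matched only the weaker Y50D4A.4 peak, over part of its length, and ctg-1 joined both sets at 82.1% and 82.7%. Across the genome, sequence matching any of the 7 windows was found at 73 places on all 6 nuclear chromosomes, with 13 in distal sequence, 25 in promoter windows and 35 inside genes. A reproducible peak overlapped 29 of the 73 (39.7%, 28.5 to 51.9). By location these were 5 of the 13 distal places, 16 of the 25 in promoter windows and 8 of the 35 inside genes. The windows at Y50D4A.4 and efa-6 are 98.0% identical, so here too the placing of reads among copies bears on which copies carry peaks, and its part was not tested.

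The other groups were small and mostly local. The lgc-26 pair (213.9 and 59.6) lay in 1 interval, and its sequence was found at 7 places, 1 with a reproducible peak. The tandem repeats at nas-30 (142.0) and fbxa-55 (132.0) belong to a sequence found at 38 places, of which 2 had a reproducible peak, these 2. The pair at T28H10.2 (124.6 and 83.4) belongs to a sequence at 3 places and the pair at Y49G5A.1 (101.4 and 95.04) to one at 12, each with 1 place under a reproducible peak. The sixth group is that of the signal recognition particle RNA genes, at syx-16 and B0284.3.

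Distal peaks had a median distance to gene starts like that of distal sequence, with fewer very distant ones. The median distance from the summit to the nearest protein-coding start was 2618 bp, with quartiles of 1519 and 4240 bp and a range from 633 to 28640 bp, against a median of 2756 bp over eligible bases. The 5 farthest from any start were at sql-1 (28640 bp, pooled score 85.8), at usp-50 (11008 and 10750 bp, scores 52.8 and 60.6, which share their replicate entries), at F52G3.8 (10603 bp, 50.6) and at Y75B8A.6 (10394 bp, 61.9). None of these 5 was an entry, but 5 peaks are too few to set against the 13.6% of all distal peaks that were entries. The 95th percentile of the distance was 7375 bp, against 9456 bp over eligible bases. The peak lay downstream of its nearest start in 97 cases (28.1%, 23.4 to 33.2, against 33.5%). The end of a gene was within 500 bp of 64 peaks (18.6%, 14.6 to 23.1, against 13.95%). The intervals between genes that held the peaks were divergent for 33.9% (29.8% of bases), tandem for 52.8% (53.4%) and convergent for 13.3% (16.5%). The nearest peak to zip-5 itself was 123517 bp away, and the nearest to unc-119 was 91324 bp away.

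**Figure D5:**
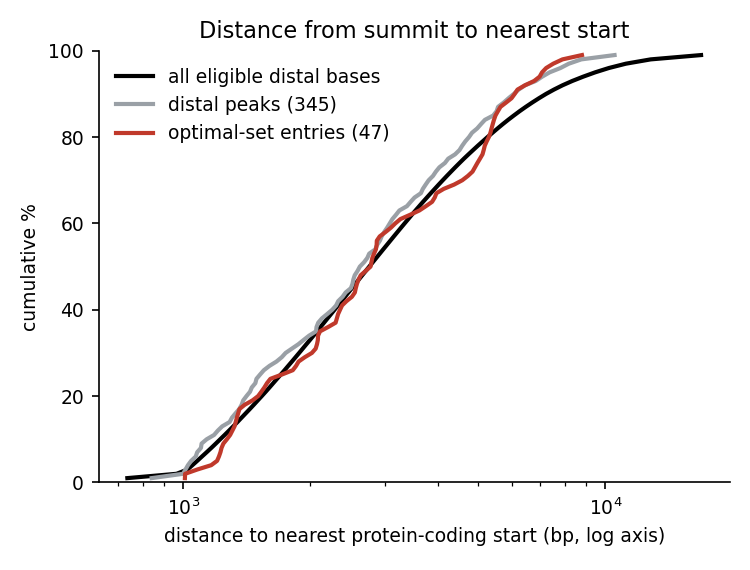
Cumulative share of summits by distance to the nearest protein-coding start (log axis) for the 345 distal peaks (grey), the 47 entries of the optimal set (red) and all eligible distal bases (black). The medians are 2618, 2776 and 2756 bp, and the curves part at the far end, with 95th percentiles of 7375, 7077 and 9456 bp.

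Entries lay near the ends of genes more often than weaker peaks did. The summit was within 500 bp of the end of a protein-coding gene in 20 of the 47 entries (42.6%, 28.3 to 57.8) and in 44 of the 298 other peaks (14.8%, 10.9 to 19.3), against 13.95% of eligible bases. Convergent intervals, where 2 genes end towards each other, held 16 entries (34.0%) and 30 other peaks (10.1%). Among the 29 entries whose window has no other copy, 11 (37.9%, 20.7 to 57.7) were within 500 bp of a gene end and 10 (34.5%) were in convergent intervals. Examples were ztf-27, which encodes a zinc finger protein and whose own end was 68 bp from the summit, D2096.7 at 173 bp and scrt-1 at 128 bp. The GC content of the windows was also higher in entries, with medians of 43.8% and 38.1%, and its part in these shares was not tested.

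Next to the peaks, 10 gene families were looked for, each as a list of gene names that can leave members out. The list for seven-transmembrane receptors had a share whose interval lay below its share of distal sequence. Nuclear hormone receptor genes were nearest to 7 peaks (2.03%, 0.820 to 4.14, against 1.84% of eligible bases), among them nhr-40 with 2 peaks (78.1 and 55.5). Genes of the bZIP list were nearest to 2 (0.580% against 0.197%), which were zip-7 (74.97) and zip-12 (53.0). Seven-transmembrane receptor genes were listed by names of the sr kind, and most of them encode chemosensory receptors. These were nearest to 4 (1.16%, 0.317 to 2.94, against 4.64%). That list leaves out srsy-1, nearest to a peak with a score of 57.4, and receptor genes with other names. Both shares are therefore those of the list and not of all such receptors. F-box genes were nearest to 3 (0.870% against 1.39%), BTB genes to 3 (0.870% against 0.434%), and ribosomal protein genes and C-type lectin genes to 1 each (0.290% against 0.197% and 0.697%). Listed homeobox genes (0.877% of bases), collagen genes (0.606%) and histone genes (0.103%) were nearest to none of the 345. The exact 95% interval of a count of 0 reaches 1.06%, above each of these 3 shares. The homeobox gene zfh-2 is not on the list and was nearest to a peak with a score of 57.1.

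By chromosome, the distal peaks numbered 57 on I (16.5%, 12.8 to 20.9, against 11.2% of eligible bases), 50 on II, 49 on III (14.2% against 11.1%), 62 on IV, 54 on V (15.7%, 11.98 to 19.92, against 20.6%) and 73 on X (21.2% against 22.7%). Entries numbered 6, 6, 7, 10, 9 and 9 in that order. The highest score on X, 135.0 at W02H3.3, was below the highest on each autosome, which ran from 225.3 to 339.2. The median score was 66.4 on X and ran from 60.7 to 64.2 on the autosomes.

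Peaks on either side of the limits of the rule had the following values. The 3 just outside a promoter window were at ain-1 (1004 bp upstream of the start, score 70.8), ZC21.10 (1007 bp, 95.8) and fbxb-58 (1009 bp, 107.1). The 3 just inside, which were not kept, were at dhs-8 (999 bp, 208.4), igcm-4 (989 bp, 57.2) and apd-3 (989 bp, 85.8). The 3 just past the distance from a tRNA or snoRNA gene were at C04A11.5 (103 bp, 109.0), aexr-3 (109 bp, 50.8) and T22F7.1 (120 bp, 54.9). Those just within it were at decr-1.2 (95 bp, 129.4), C30E1.4 (91 bp, 67.5) and W03C9.1 (68 bp, 501.1).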

How the data were processed

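Peak lists on ce11 were used as deposited. The listings that accompany the samples state that the authors called 1 list per replicate and 1 on the replicates together, each with a control, and derived the optimal set from these 3 by the irreproducible discovery rate. The signal score and the −log10 q-value per peak are the authors' values in the deposited lists, and the latter is not used in the report. Lists on ce10 were not analysed here, with the aligner, peak caller, settings and threshold not given in the sources used here. The replicate lists held 6253 and 6945 entries, the pooled list 4380 (4362 nuclear) and the optimal set 746 (730 nuclear). The lists carry no read counts, so the sequencing depth is unknown.

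From these lists, the score of a peak in a replicate was that of the overlapping replicate entry with the nearest summit, and neighbouring peaks can share one (28 replicate 1 and 24 replicate 2 entries were shared). Genes came from Ensembl 115 and bases from RefSeq, both WBcel235, and coordinates count from 1. Eligible bases are the 25020409 nuclear bases (25.0%) that the location rule admits. Copies were searched with blastn 2.17.0 (E-value 1e-05, no dust filter), in every peak window and in every 40th background window, and copies within 500 bp were joined. Python 3.11.15 with numpy 2.4.6, pandas 2.3.3, scipy 1.17.1 and matplotlib 3.10.9 was used. The rule, overlaps, words and copies were checked on a simulated genome with planted answers. Shares carry exact Clopper-Pearson 95% intervals, and no test was made. Members, lists and words were chosen with earlier results of these data known. Peaks named are the 20 strongest, the 5 farthest from a start, the strongest of each RNA class and sequence group, and every one with CTAGGCCA. Other names, those with CGCAGGGA included, and the RNA gene families were chosen after their values were seen. Alternatives were other promoter windows, distances, overlaps, window sizes and copy limits, the stronger peaks, 1 peak per place, and each replicate alone.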

Additional observations from a re-analysis of the deposited data

How the results depend on the processing

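No paired analysis was possible because there is only 1 group and no test. Of 63 alternative values, 50 stayed within 1.5 times (counts) or within the 95% interval (shares and medians) of the value reported, and 13 did not. The number of distal peaks, 345, was 497 and 246 with promoter windows of 500 and 2000 bp, and 108 among the stronger 50% of the reproducible peaks, which by construction hold fewer. Overlap with the optimal set, 61 peaks, was 109 with the 500 bp window. The median score of 63.3 was 87.5 among the stronger 50%. The share near non-coding genes or pseudogenes, 19.4%, was 26.9% among the stronger 50% and 27.2% within 250 bp. The share of bases was counted for 100 bp only, so the value for 250 bp has no background beside it. The median distance to a start, 2618 bp, was 1660 and 3408.5 bp with the 500 and 2000 bp windows, by construction. The CTAGGCCA share of 2.61% was 0.870% when the whole word had to lie within 50 bp of the summit. No background was counted for that shorter window. By the middle of the word, 5 of the 9 peaks had it within 50 bp. The share with copies, 14.2%, was 4.64% at 90% identity over 80% of the window (17.6% of background windows). CGCAGGGA, in 8 peaks, was in 4 of the stronger 50%, in 3 within 50 bp and in 10 within 200 bp, and its count without replicate 2 was more than 1.5 times lower. Without replicate 1 or without replicate 2, the number of distal regions was 366 and 363, overlap with the optimal set 53 and 57, the median pooled score 64.7 and 67.0, the CTAGGCCA share 3.55% and 3.03%, the share near non-coding genes 21.0% and 18.2%, the median distance 2771 and 2620 bp, and the CGCAGGGA count 6 and 5. Of these single-replicate regions, 72 and 98 overlapped no pooled peak and entered no median score. Counting 1 peak per merged place, which was chosen after seeing the data, as were the CGCAGGGA counts, left every value within those limits.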
